A study of Mus musculus with 15 samples.

Results

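Interleukins are secreted messengers of the immune system, and each acts through receptor chains on the surface of the cell that receives it. The genes described here are mouse genes whose symbol begins with Il and a number. They number 84 of the 23329 genes in the count tables, and hold interleukin ligands, receptor chains, soluble inhibitors and 1 enzyme (Il4i1, an amino acid oxidase induced by IL-4). Interferon lambda genes are included under their older symbols, with Il28ra for the receptor chain now called Ifnlr1. The rule that picks them reads the symbol and no measured value.

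Receptor chains are shared, so a cell responds only when it makes the right pair. Il2rg is the common gamma chain of the receptors for IL-2, IL-4, IL-9, IL-15, IL-21 and others, and Il6st (gp130) is the shared chain of the IL-6 family. Receptors of the IL-2, IL-6, IL-10 and IL-12 families signal through Janus kinases and STAT factors, while those of the IL-1 and IL-17 families recruit adaptors such as MyD88 and Act1. B cells and their precursors depend on several of these signals, whereas sympathetic neuroblasts are better known for responses to gp130 cytokines.

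RNA was sequenced from 15 mouse tumors, 1 library from each mouse. EμMyc mice carry c-Myc under the immunoglobulin heavy chain enhancer, which is active in B cells, and Th-MYCN mice carry MYCN under the tyrosine hydroxylase promoter, which is active in sympathetic neuroblasts. The 4 EμMyc and 3 EμMyc/Casp2-/- tumors were lymphomas of cervical lymph nodes in C57BL/6 mice, and the 4 Th-MYCN and 4 Th-MYCN/Casp2-/- tumors were paraspinal thoracic neuroblastomas in mice of mixed Sv129/C57BL6 background, chosen by the authors for little or no vascularization. Casp2-/- mice carry a deletion in both copies of the caspase-2 gene, and the comparison with wild-type tumors addressed what changes with its loss. Tumor onset ranged, in weeks of age, from 13 to 19 for EμMyc, from 8 to 12 for EμMyc/Casp2-/-, from 10 to 21 for Th-MYCN, and for Th-MYCN/Casp2-/- animals from 15 to 24. Tumor type cannot be told apart from strain and site, and in the lymphomas genotype cannot be told apart from age at onset. The values are second strand read counts per gene, given below as reads or as CPM, counts scaled to the size of each library after TMM normalization. Totals were 9236641 to 13093667 reads in EμMyc, 4940464 to 11697757 in EμMyc/Casp2-/-, 13862487 to 17638029 in Th-MYCN and 10353787 to 15681695 in Th-MYCN/Casp2-/- tumors. A count of 3 reads, taken as the floor of detection, was worth 0.173 to 0.586 CPM in a single tumor, which covers counting error only.

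The tumors carried the markers of their labels. All 8 B cell markers tested were higher in the lymphomas in both genotypes, and all 9 markers of sympathetic neuroblasts were lower. B cell markers summed to 2112 to 4979 CPM in the lymphomas and 11.4 to 27.1 CPM in the neuroblastomas. Neuroblast markers summed to 2829 to 5428 CPM in the neuroblastomas and 3.23 to 20.3 CPM in the lymphomas, with Ddc the most abundant. The targeted gene Casp2, counted over all its exons, was at 167, 125, 203 and 139 CPM in EμMyc tumors and at 58.02, 51.9 and 76.1 CPM in EμMyc/Casp2-/- tumors (log2FC -1.35, SE 0.27, LRT FDR 0.00040, QLF FDR 0.0536). In Th-MYCN tumors it was at 125.5, 93.3, 76.01 and 106 CPM, against 80.2, 57.7, 39.6 and 54.5 CPM in Th-MYCN/Casp2-/- tumors (log2FC -0.79, SE 0.25, LRT FDR 0.101), with MYCNC2ko118 above MYCN332. The counts do not show which exons the remaining reads came from.

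A pair of lymphomas stood apart by their marker sums. EuMycC2ko215 had T cell markers summing to 1986 CPM, against 162 to 298 CPM in the other 6 lymphomas and 70.9 to 122 CPM in the neuroblastomas. All 14 T cell markers were read in it, with Cd8a at 362 CPM against 0.437 to 9.85 CPM in the others, and Thy1, the most abundant of the list over all tumors, at 323 CPM. It also had the highest macrophage sum of the lymphomas (1733 CPM, with 358 to 1301 CPM in the rest) and was the library of least depth. Its pre-B cell markers summed to 1137 CPM (252 to 448 CPM in the other lymphomas) and its NK cell markers to 30.7 CPM (2.01 to 12.0 CPM in the rest), while Myc was at 498 CPM in it and at 1238 to 1914 CPM in the other lymphomas. EuMyc743b had granulocyte markers summing to 500.4 CPM, led by S100a9, against 18.0 to 192 CPM in the other lymphomas and 1.73 to 7.23 CPM in the neuroblastomas. Its macrophage sum of 1301 CPM was the highest of the EμMyc tumors, the others having 577 to 784 CPM. In these bulk tumors, more cells of a type and more RNA per cell cannot be told apart. Where leaving out either tumor ended a call between tumor types described below, the value without it is given there, and the part of these markers in the results was not tested.

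**Figure D1:**
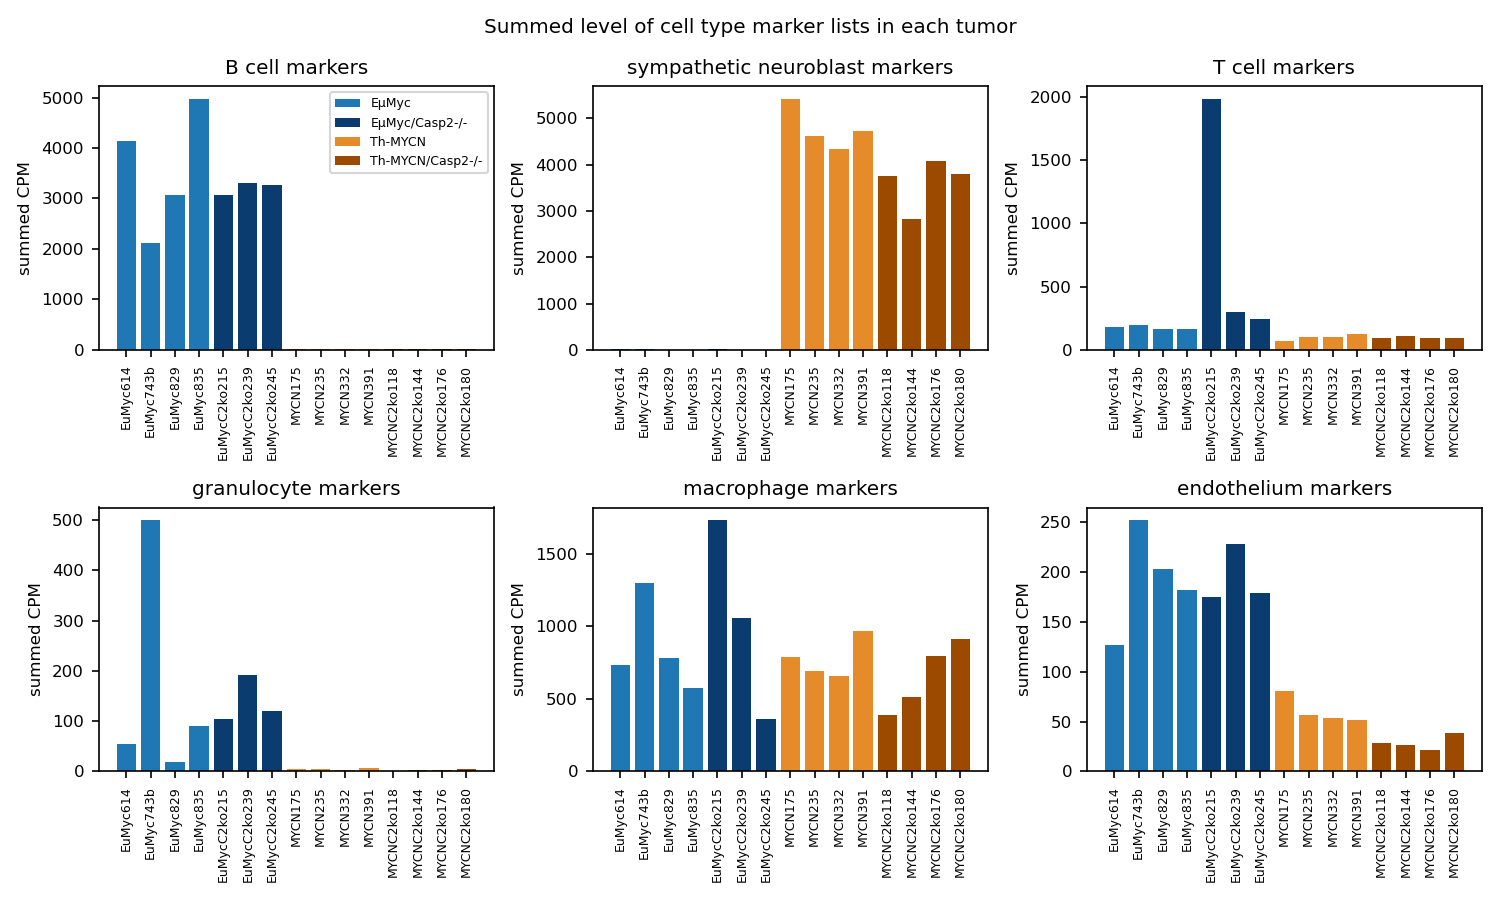
Summed CPM (y axis, linear from 0) of 6 lists of cell type markers in each of the 15 tumors (x axis), colored by group. B cell and neuroblast sums separate the tumor types, T cell markers reach 1986 CPM in EuMycC2ko215 alone, and granulocyte markers are highest in EuMyc743b at 500.4 CPM.

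Many of the genes were too sparsely read to test. In the second strand column 14 of the 84 had no read in any tumor, 29 had reads but did not exceed 1 CPM in 3 tumors, and 41 (48.8%) passed that filter, which 63.8% of all genes passed. Of those 14, 8 had no read on either strand and 6 had 1 or 2 reads on the other strand over all 15 tumors. Ligands made up most of the 14. Of 39 ligand genes 11 were among them, with Il3, Il9, Il28a and Il28b unread on either strand and Il17a, Il20, Il24 and Il31 at 1 or 2 reads on the other strand, and 11 were tested. Of 41 receptor genes 28 were tested, and Il11ra2 (unread) and Il1rapl1 (1 read on the other strand) were among the 14. None of the IL-10 family ligands was tested, and Il10 itself, which restrains macrophages and helps B cells, reached 1.42 CPM in MYCN391 and at most 0.428 CPM in a lymphoma. Il6, which drives plasma cell growth, was at 2.91 CPM in EuMyc743b and at most 0.315 CPM elsewhere. Il2, Il4 and Il21, which T cells make for B cells, reached at most 0.250 CPM in any of the 15 tumors.

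Summed over the 84 genes, the level was 779 ± 94.3 CPM in EμMyc (SD, n = 4), 1018 ± 285 CPM in EμMyc/Casp2-/- (n = 3), 263 ± 24.2 CPM in Th-MYCN (n = 4) and 267 ± 47.8 CPM in Th-MYCN/Casp2-/- tumors (n = 4). The highest sum was that of EuMycC2ko215, at 1301 CPM, while the other EμMyc/Casp2-/- tumors had 1022 and 730.3 CPM. A few genes held most of these reads. In the lymphomas Il17ra, a receptor chain for IL-17A and IL-17F, gave on average 19.6% of the summed CPM, Il16 17.3% and Il2rg 12.2%, and in the neuroblastomas Il6st gave 25.0% and Il18bp 15.6%. Per kilobase of exon, which allows genes to be compared, Il2rg led the lymphomas at 43.0 CPM per kb, ahead of Il17ra (20.2), Il16 (18.9), Il10ra (15.9), Il10rb (9.65), Il18bp (8.95), Il21r (8.53) and Il4ra (8.32). The neuroblastomas were led by Il18bp (13.5 CPM per kb), the secreted inhibitor of IL-18, followed by Il17d (8.80), Il6st (6.08), Il3ra (6.03), Il2rg (4.85), Il34 (2.51), Il10ra (2.49) and Il4ra (2.38). Il2rg, Il10ra, Il18bp and Il4ra were in both lists.

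**Figure D2:**
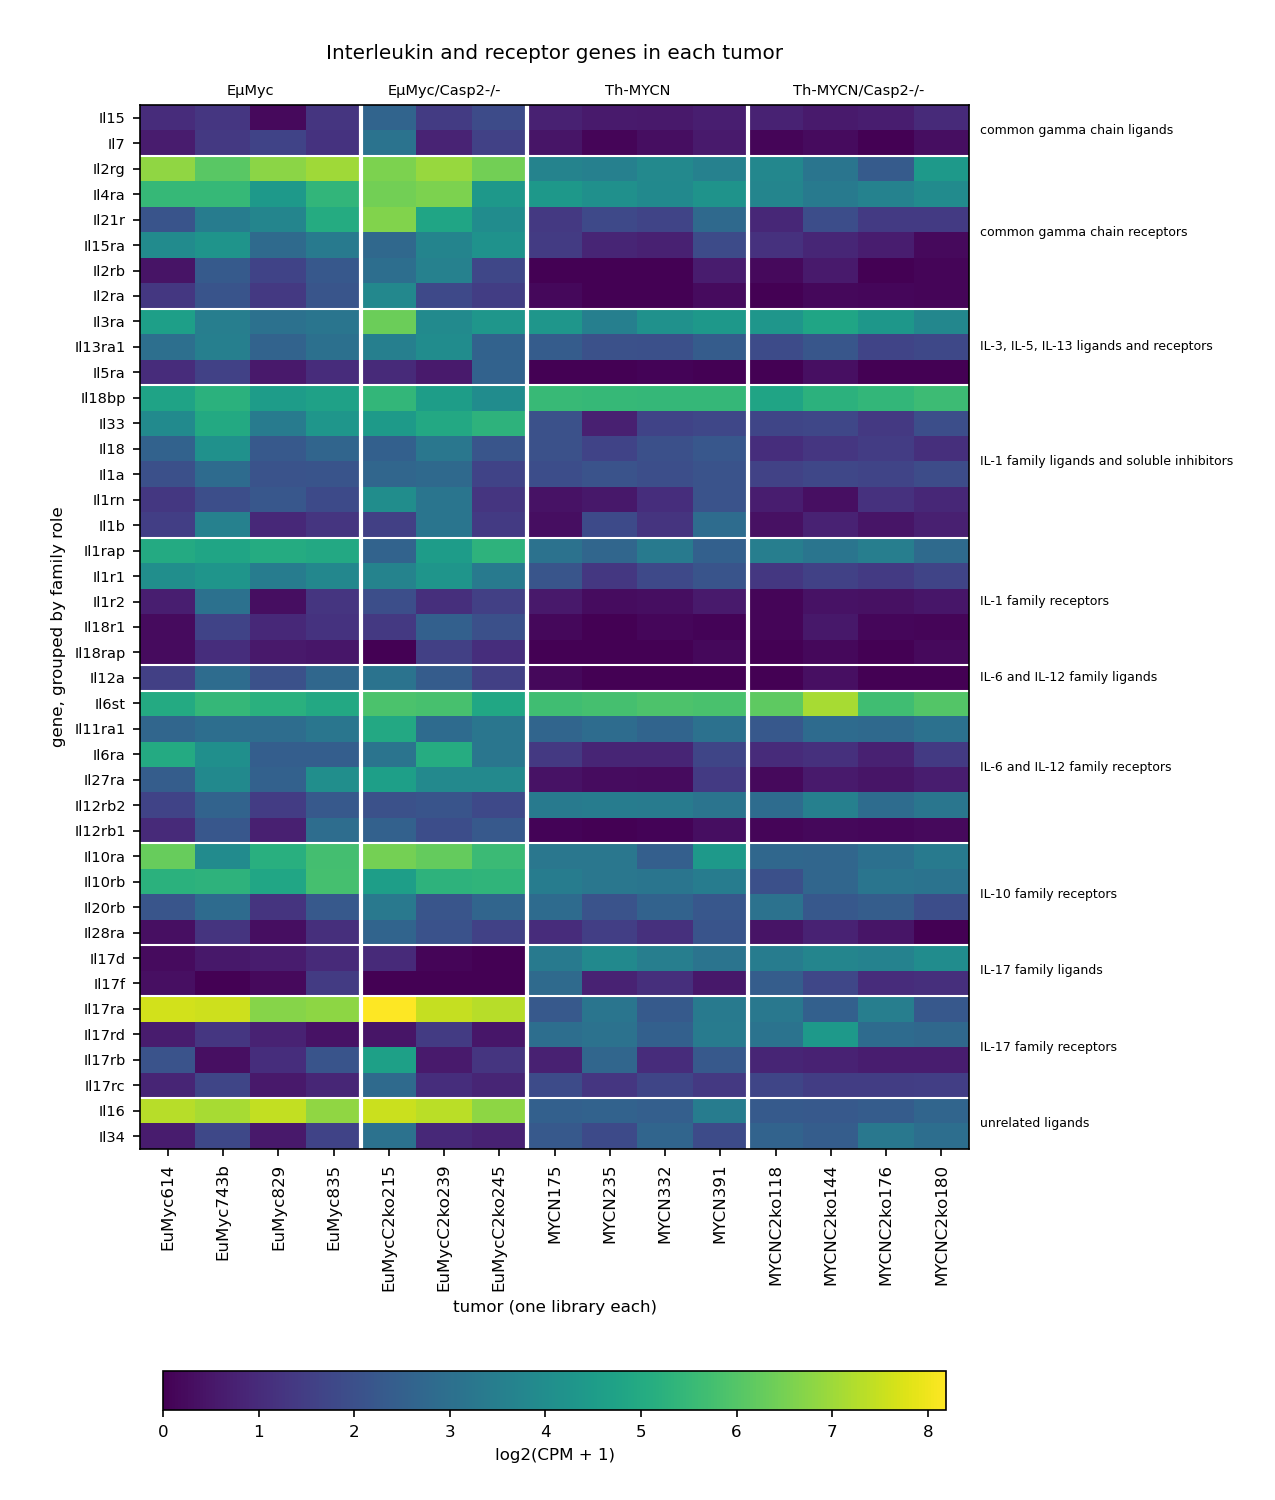
Level of the 41 tested genes (rows, grouped by family role) in each of the 15 tumors (columns, grouped by genotype), as log2(CPM + 1) from dark (0) to yellow. The brightest rows of the lymphomas are Il17ra, Il16 and Il2rg, and those of the neuroblastomas are Il6st and Il18bp.

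Most of the tested genes were higher in lymphomas than in neuroblastomas, whichever the Casp2 genotype. A gene was called at an FDR under 0.05 and a fold change over 2 by the likelihood ratio test (LRT) of edgeR, with the quasi-likelihood test (QLF) beside it. In EμMyc against Th-MYCN tumors 24 of the 41 were called higher, where 18.9% of all 14880 genes tested were, and 3 were called lower, where 28.5% of all were. In EμMyc/Casp2-/- against Th-MYCN/Casp2-/- tumors 30 were called higher (20.5% of all genes) and 4 lower (27.6%). QLF gave the same counts, where it called 18.3% of all genes higher and 27.8% lower in the first comparison and 19.7% and 26.6% in the second. The filter shapes these counts, because 11 of the genes passed it through the lymphomas alone and 3 through the neuroblastomas alone. Of the 27 that exceeded 1 CPM in 3 tumors of each type, 14 were called higher and 1 lower in the first comparison and 19 and 1 in the second. No share over all genes is given for that stricter filter, and the shares above are over all genes tested. The median log2FC of the 41, which the filter shapes in the same way, was 2.09 and 2.91, beside -0.04 and -0.05 over all genes tested. The comparisons share no tumor, and 24 genes were called higher and 3 lower in both, counts for which no share over all genes is given.

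**Figure D3:**
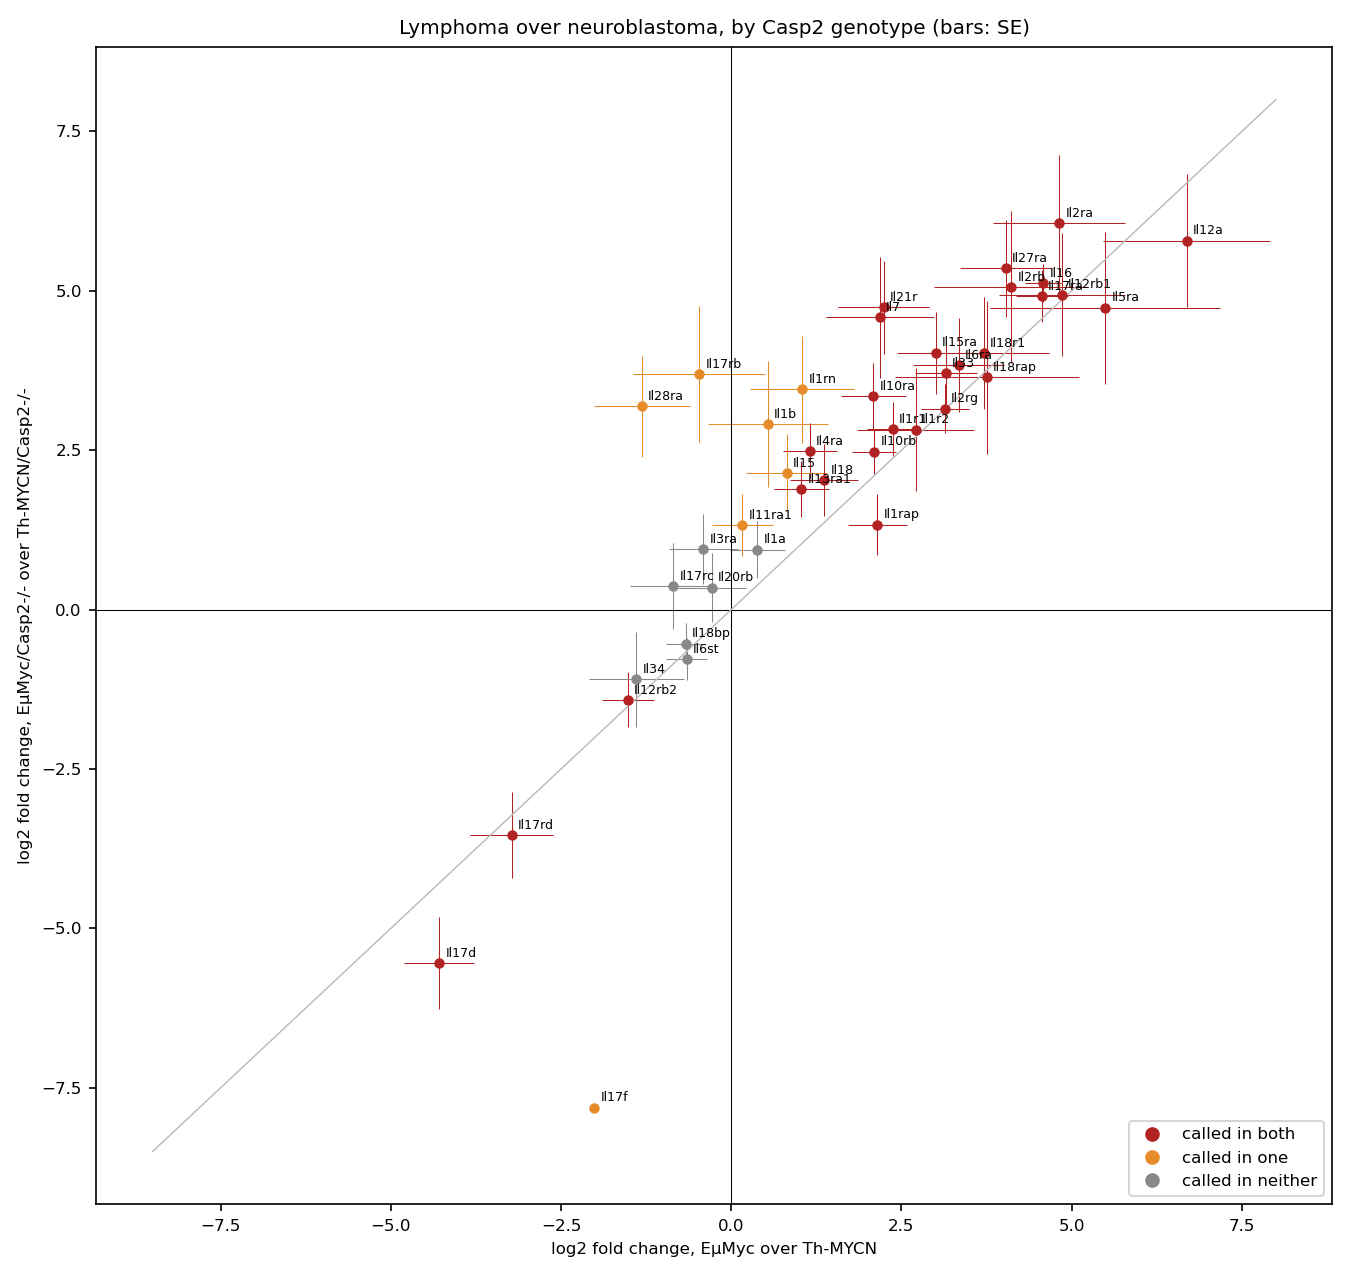
Log2 fold change of lymphoma over neuroblastoma for the 41 tested genes, in wild-type tumors (x axis) and in Casp2-/- tumors (y axis), with standard errors as bars. Red marks the 27 genes called in both comparisons, which lie at the upper right except for Il17d, Il17rd and Il12rb2, and Il17f has no bar because no EμMyc/Casp2-/- tumor had a second strand read.

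The genes with the highest lymphoma levels did not overlap between the tumor types. Il17ra was at 195, 188, 103 and 110 CPM in EμMyc and 291, 177 and 159 CPM in EμMyc/Casp2-/- tumors, against 3.85, 8.06, 4.04 and 9.26 CPM in Th-MYCN and 8.71, 4.75, 10.4 and 3.74 CPM in Th-MYCN/Casp2-/- tumors. Its log2FC was 4.56 (SE 0.38) in wild-type and 4.92 (SE 0.41) in Casp2-/- tumors (LRT FDR 6.3e-25 and 1.3e-26, QLF FDR 2e-07 and 1.8e-07). Every lymphoma exceeded every neuroblastoma, and Il17a, a ligand of this receptor, had a single read over both strands and all libraries, in an EμMyc/Casp2-/- tumor. Il16, a chemoattractant for CD4 cells cut from a larger precursor, was at 158, 139, 171 and 114 CPM in EμMyc and 186, 161 and 111 CPM in EμMyc/Casp2-/- tumors. In Th-MYCN it was at 4.76, 5.01, 4.62 and 9.88 CPM and in Th-MYCN/Casp2-/- at 4.03, 3.86, 4.24 and 5.36 CPM (log2FC 4.58, SE 0.27, and 5.13, SE 0.30, LRT FDR 2e-49 and 5.4e-55). Its exons overlap those of Stard5 on the other strand. Il2rg was at 113, 67.2, 108 and 129 CPM in EμMyc and 93.4, 122 and 86.9 CPM in EμMyc/Casp2-/- tumors. The neuroblastomas held 11.8, 10.7, 13.6 and 11.2 CPM and, without Casp2, 12.8, 8.16, 4.15 and 20.1 CPM (log2FC 3.13, SE 0.35, and 3.15, SE 0.38, LRT FDR 1.8e-15 and 1.5e-14). All 7 lymphomas were again above all 8 neuroblastomas.

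The promoters of the genes at the ends of this comparison are shown for their sequence around the start site: the top pair per kilobase in lymphomas with a promoter in the table, and the 3 genes called lower in lymphomas in both genotypes. Each runs from 250 bases before to 50 bases after the RefSeq start (GRCm38.p6), on the strand of the gene, and capitals mark matches to TTCNNNGAA, the core letters of a STAT site.
Il2rg, chrX:101268206-101268505, minus strand: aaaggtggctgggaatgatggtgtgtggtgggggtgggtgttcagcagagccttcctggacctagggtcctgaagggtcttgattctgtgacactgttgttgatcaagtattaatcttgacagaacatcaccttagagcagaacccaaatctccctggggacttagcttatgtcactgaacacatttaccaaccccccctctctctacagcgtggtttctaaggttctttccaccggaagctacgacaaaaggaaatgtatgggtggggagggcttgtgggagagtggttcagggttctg
Il16, chr7:83735490-83735789, minus strand: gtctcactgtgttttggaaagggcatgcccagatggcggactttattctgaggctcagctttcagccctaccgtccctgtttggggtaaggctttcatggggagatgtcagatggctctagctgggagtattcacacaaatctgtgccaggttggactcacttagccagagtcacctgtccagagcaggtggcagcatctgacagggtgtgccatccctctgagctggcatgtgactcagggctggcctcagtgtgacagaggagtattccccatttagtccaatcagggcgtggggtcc
Il17rd, chr14:27038751-27039050, plus strand: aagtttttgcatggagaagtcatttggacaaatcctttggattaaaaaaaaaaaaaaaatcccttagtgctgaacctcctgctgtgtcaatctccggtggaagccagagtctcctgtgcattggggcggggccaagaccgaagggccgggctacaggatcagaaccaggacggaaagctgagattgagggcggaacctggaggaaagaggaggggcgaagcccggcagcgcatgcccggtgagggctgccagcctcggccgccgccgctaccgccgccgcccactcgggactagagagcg
Il17d, chr14:57524579-57524878, plus strand: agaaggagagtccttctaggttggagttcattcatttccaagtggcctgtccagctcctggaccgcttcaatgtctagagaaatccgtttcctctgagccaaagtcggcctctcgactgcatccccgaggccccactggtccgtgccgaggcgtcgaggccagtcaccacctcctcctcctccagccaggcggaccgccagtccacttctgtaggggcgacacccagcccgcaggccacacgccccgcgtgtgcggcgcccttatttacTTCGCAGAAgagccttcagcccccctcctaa
Il12rb2, chr6:67376139-67376438, minus strand: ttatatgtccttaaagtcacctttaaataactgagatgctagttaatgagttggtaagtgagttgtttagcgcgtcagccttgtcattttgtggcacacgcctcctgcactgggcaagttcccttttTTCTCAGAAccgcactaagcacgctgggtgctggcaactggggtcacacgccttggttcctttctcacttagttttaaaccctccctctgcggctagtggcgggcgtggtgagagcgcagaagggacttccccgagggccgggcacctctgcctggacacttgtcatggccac

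A promoter was found for 67 of the 84 genes. TTCNNNGAA, read on both strands, was in 7 of them (10.4%) and in 8.47% of 27025 promoters of all genes, and among the 5 shown it was in Il17d and Il12rb2, at bases 270 to 278 and 128 to 136 of the window. The E-box CACGTG, the core letters bound by Myc proteins, was in 2 (2.99%, Il1r2 and Il6ra), against 7.24% of all. GAGGAAG, letters of an ETS site, was in 7 (10.4%), against 13.5% of all. Neither of the last 2 motifs was in any of the 5 promoters shown. The motifs were searched on both strands and counted apart, so that their matches may overlap. A match describes the letters of the window and no binding was measured.

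Of 7 receptor chains of the common gamma family 6 were tested, Il2rg among them, and all 6 were called higher in lymphomas in both genotypes, where 18.9% and 20.5% of all genes were. Il2ra and Il2rb passed the filter through the lymphomas alone, and Il9r, which was not tested, peaked at 1.76 CPM. Il21r, the receptor through which IL-21 acts on B cells, was at 3.41, 9.92, 12.1 and 32.2 CPM in EμMyc and 99.0, 27.1 and 14.7 CPM in EμMyc/Casp2-/- tumors. It was at 1.59, 2.47, 2.19 and 5.93 CPM in Th-MYCN and 0.864, 2.83, 1.64 and 1.62 CPM in Th-MYCN/Casp2-/- tumors (log2FC 2.24, SE 0.67, and 4.74, SE 0.73, LRT FDR 0.0028 and 1.5e-08). EuMyc614 overlapped the wild-type neuroblastomas, and EuMycC2ko215 held the highest value. Without EuMycC2ko215 the second log2FC was 3.65 and the call remained. Il4ra, which pairs with Il2rg to bind IL-4 and lies 24.0 kb from Il21r on chromosome 7, was at 44.1, 44.1, 20.2 and 40.8 CPM in EμMyc and 85.6, 95.2 and 19.5 CPM in EμMyc/Casp2-/- tumors. The neuroblastomas lay between 9.25 and 19.6 CPM (log2FC 1.15, SE 0.40, and 2.49, SE 0.43).

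Il2ra, the alpha chain that raises affinity for IL-2, was at 1.49, 3.34, 1.57 and 3.50 CPM in EμMyc and 13.3, 2.50 and 1.82 CPM in EμMyc/Casp2-/- tumors, and at most 0.185 CPM in a neuroblastoma. Its log2FC was 4.82 (SE 0.97, LRT FDR 7.9e-07) and 6.07 (SE 1.06, LRT FDR 7.1e-09), and the second was 4.72 without EuMycC2ko215. The lone high value of Il2ra was in the tumor with the highest T cell, pre-B cell and NK cell sums, and the other 6 lymphomas also stood above all neuroblastomas. The part of these markers in its level was not tested. Il2rb, the signaling chain for IL-2 and IL-15, ran from 0.350 to 11.02 CPM in the lymphomas and from 0 to 0.556 CPM in the neuroblastomas, with EuMyc614 below MYCN391 (log2FC 4.11, SE 1.14, and 5.06, SE 1.20). All 9 second strand reads of the Th-MYCN tumors were in MYCN391, without which the first log2FC was 7.99. That value depends on the small prior count added in the fit, since no second strand read was left in that group. Without MYCNC2ko144 the second was 6.23. Its highest lymphoma was EuMycC2ko239, not EuMycC2ko215 (6.84 CPM). Il15ra, which presents IL-15, ran from 5.86 to 17.8 CPM in the lymphomas and 0.163 to 2.66 CPM in the neuroblastomas (log2FC 3.01, SE 0.57, and 4.03, SE 0.64). Of the ligands of these chains, Il7, a growth factor of B cell precursors, was called in both genotypes (log2FC 2.18, SE 0.79, and 4.58, SE 0.95, the latter 3.36 without EuMycC2ko215) at 0.525 to 7.62 CPM in the lymphomas and at most 0.494 CPM in the neuroblastomas. Il15 was called in the Casp2-/- tumors (log2FC 2.14, SE 0.62, LRT FDR 0.0011), and in the wild-type tumors had log2FC 0.81 (SE 0.60, LRT FDR 0.23). Both Il7 and Il15 passed the filter through the lymphomas alone.

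Among the receptors for IL-3, IL-5 and IL-13, Il5ra, the IL-5 receptor alpha chain of eosinophils and some B cells, was nearly confined to lymphoma libraries. It was at 1.05, 1.97, 0.472 and 1.06 CPM in EμMyc and 0.977, 0.501 and 4.95 CPM in EμMyc/Casp2-/- tumors, from 111 reads, whereas the 8 neuroblastomas held 5 reads. In wild-type tumors 51 second strand reads faced 1, a ratio of 71.8 after scaling (95% exact counting interval 12.3 to 2890). With the unstranded column 97 reads faced 4 in wild-type tumors and 115 faced 5 in Casp2-/- tumors. The 1 second strand read of the Th-MYCN tumors was in MYCN332, without which the log2FC went from 5.50 to 6.81. In Casp2-/- tumors 49 of the 60 lymphoma reads were in EuMycC2ko245, and without it the log2FC went from 4.74 to 3.10, the call remaining (LRT FDR 0.0071). All 4 Th-MYCN/Casp2-/- reads were in MYCNC2ko144, without which the log2FC in Casp2-/- tumors was 7.74. The values without MYCN332 and without MYCNC2ko144 depend on the prior count, because no second strand read was left in the group. Il5ra passed the filter through the lymphomas alone. Its ligand Il5 reached 0.787 CPM at most. Markers of mast cells, basophils and eosinophils were sparse in the same libraries, summing to 0.866 to 7.81 CPM in the lymphomas and at most 0.45 CPM in the neuroblastomas, with Prg2 the most abundant and Ms4a2 and Fcer1a at 0 in all 15 tumors. Il13ra1, a chain for IL-13, was called higher in both genotypes (log2FC 1.03, SE 0.40, and 1.89, SE 0.44), the first by a small margin. That call was lost with DESeq2, with RLE size factors and without EuMyc743b, MYCN235 or MYCN332 (log2FC 0.81, 0.96 and 0.95). Il3ra, the IL-3 receptor alpha chain, was among the best read genes of both tumor types, at 23.5, 10.4, 7.32 and 8.07 CPM in EμMyc, 80.1, 14.3 and 18.6 CPM in EμMyc/Casp2-/-, 18.8, 10.6, 16.5 and 19.5 CPM in Th-MYCN and 18.6, 27.1, 19.2 and 12.9 CPM in Th-MYCN/Casp2-/- tumors. It was called in neither comparison of tumor types (log2FC -0.41, SE 0.51, and 0.95, SE 0.55), and without EuMycC2ko215, where it was far above the rest, the second turned to -0.18.

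In the IL-1 family all 5 tested receptor chains were called higher in lymphomas in both genotypes, where 18.9% and 20.5% of all genes were, but Il1r2, Il18r1 and Il18rap passed the filter through the lymphomas alone. A run of 6 of these receptor genes covers 477.6 kb of chromosome 1 (chr1:40074079-40551705, GRCm38), in the order Il1r2, Il1r1, Il1rl2, Il1rl1, Il18r1 and Il18rap, and their levels were far from equal. Il1r1, the signaling receptor for IL-1, ran from 9.19 to 18.4 CPM in the lymphomas and from 1.51 to 3.42 CPM in the neuroblastomas (log2FC 2.37, SE 0.38, and 2.83, SE 0.42). Its neighbor Il1rl2 was not tested, with a highest value of 1.37 CPM. Il1r2, the decoy receptor that binds IL-1 without signaling, was at 0.612, 7.36, 0.236 and 1.38 CPM in EμMyc and 2.93, 1.17 and 1.92 CPM in EμMyc/Casp2-/- tumors, against 0.072 to 0.494 CPM in the neuroblastomas. The highest value was in EuMyc743b, the tumor with the high granulocyte sum and the highest macrophage sum of its group. Without that tumor the log2FC in wild-type tumors went from 2.71 (SE 0.86, LRT FDR 0.0045) to 1.00 (LRT FDR 0.209). Il18r1 and Il18rap, the pair of chains for IL-18, were low but higher in lymphomas (Il18r1 log2FC 3.71, SE 0.95, and 4.02, SE 0.88, with at most 4.67 CPM). For Il18rap 25 reads in EμMyc faced 2 in Th-MYCN tumors, a ratio of 17.6 (95% exact counting interval 4.39 to 153). Of the 25 reads 13 were in EuMyc743b, and without that tumor, without EuMycC2ko239 or EuMycC2ko245, with the unstranded column or with the compared groups alone Il18rap did not pass the filter and was not tested. Il1rap, the accessory chain shared by IL-1, IL-33 and IL-36 receptors, was at 30.9, 27.0, 32.0 and 29.7 CPM in EμMyc tumors but at 5.08, 22.1 and 38.1 CPM in EμMyc/Casp2-/- tumors, EuMycC2ko215 being the low one and within the neuroblastoma range of 4.69 to 10.3 CPM (log2FC 2.15, SE 0.44, and 1.33, SE 0.48, the latter 1.85 without EuMycC2ko215 and, no longer called, 0.66 with LRT FDR 0.234 without EuMycC2ko245).

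Of the IL-1 family ligands Il33, an alarmin of nuclear origin, was the most abundant in lymphomas. It was at 14.3, 30.6, 9.61 and 18.9 CPM in EμMyc and 21.3, 29.7 and 38.4 CPM in EμMyc/Casp2-/- tumors, and at 3.05, 0.654, 2.14 and 2.35 CPM in Th-MYCN and 2.30, 2.31, 1.54 and 2.92 CPM in Th-MYCN/Casp2-/- tumors (log2FC 3.15, SE 0.45, and 3.71, SE 0.49, LRT FDR 3.4e-10 and 2.5e-12). Its receptor gene Il1rl1 (ST2) was below the filter, with at most 1.20 CPM in a lymphoma and a single second strand read over the 8 neuroblastomas. On the other strand EμMyc and EμMyc/Casp2-/- tumors had 18 and 12 reads, and Th-MYCN and Th-MYCN/Casp2-/- tumors 5 and 2. With no CPM filter Il1rl1 was called higher in lymphomas in both genotypes. Il18, made ready by inflammasomes, was called higher in both genotypes, at 4.90, 16.5, 3.94 and 5.31 CPM in EμMyc and 4.69, 8.51 and 3.43 CPM in EμMyc/Casp2-/- tumors (log2FC 1.37, SE 0.50, and 2.03, SE 0.56). Without EuMyc743b the first was 0.67 (LRT FDR 0.165). Il1b, the classical inflammatory IL-1, was at 1.84, 11.04, 0.945 and 1.38 CPM in EμMyc and 1.95, 8.01 and 1.62 CPM in EμMyc/Casp2-/- tumors, against 0.244, 2.54, 1.33 and 6.36 CPM in Th-MYCN and 0.288, 0.707, 0.386 and 0.650 CPM in Th-MYCN/Casp2-/- tumors. It was called in the Casp2-/- comparison only (log2FC 2.91, SE 0.99, LRT FDR 0.0074, and 1.85 with FDR 0.125 without EuMycC2ko239), and in the wild-type comparison 0.54 (SE 0.88, LRT FDR 0.62) turned to -0.91 without EuMyc743b. The interaction term for Il1b was not called (log2FC 2.37, SE 1.33, LRT FDR 0.63). Granulocyte markers, 5 of 6 called higher in wild-type and all 6 in Casp2-/- lymphomas, thus had their highest sum in the tumor where Il1b, Il18, Il1r2 and Il1a were also highest. The same tumor, EuMyc743b, had the highest macrophage sum of the EμMyc tumors (1301 CPM, with 577 to 784 CPM in the others). The part of either set of markers in these values was not tested. Il1rn, the secreted IL-1 receptor antagonist, was called in the Casp2-/- tumors (log2FC 3.46, SE 0.83, LRT FDR 0.00017), at 15.2, 8.01 and 1.41 CPM against 0.257 to 1.25 CPM, with 2.72 and the call kept without EuMycC2ko215. In the wild-type tumors it was not called (log2FC 1.04, SE 0.76, LRT FDR 0.23), except without MYCN391 (2.08, LRT FDR 0.0168). Il18bp, whose exons overlap those of Numa1, was well read in all tumors, at 14.9 to 42.2 CPM in lymphomas and 26.6 to 47.8 CPM in neuroblastomas, and was called in neither comparison (log2FC -0.67, SE 0.30, and -0.53, SE 0.32). Il1a, whose exons overlap those of Gm14023 on the other strand, was called in neither comparison (log2FC 0.38, SE 0.40, and 0.94, SE 0.45), though the second was called with the unstranded column (1.21, LRT FDR 0.0347).

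In the IL-6 and IL-12 families partner chains often differed in level. Il12a, the p35 subunit of IL-12 and IL-35, was at 1.92, 6.42, 3.07 and 5.63 CPM in EμMyc and 7.62, 4.26 and 1.92 CPM in EμMyc/Casp2-/- tumors, while 6 of 8 neuroblastomas had no second strand read. In wild-type tumors 189 second strand reads faced 2, a ratio of 133 (95% exact counting interval 36.3 to 1106), both of the 2 being in MYCN175. The 4 second strand reads of the Th-MYCN/Casp2-/- tumors were all in MYCNC2ko144. With the unstranded column 341 reads faced 4 in wild-type tumors and 167 faced 6 in Casp2-/- tumors. Without MYCN175 the log2FC went from 6.69 to 8.71 and without MYCNC2ko144 from 5.79 to 8.80. These values depend on the prior count because no second strand read was left in the group. QLF FDR was 7.4e-05 and 0.00022 in the 2 genotypes. Il12b, the partner subunit that makes IL-12 and IL-23, reached 1.00 CPM at most, in EuMycC2ko239. The chains of the receptor were called in opposite directions, although Il12rb1, like Il12a, passed the filter through the lymphomas alone. Il12rb1 was at 0.962, 3.68, 0.630 and 6.69 CPM in EμMyc and 4.88, 2.84 and 3.84 CPM in EμMyc/Casp2-/- tumors, and at most 0.247 CPM in neuroblastomas (log2FC 4.86, SE 0.92, and 4.94, SE 0.97). Il12rb2 was at 2.10, 5.05, 1.73 and 3.93 CPM in EμMyc and 3.13, 3.34 and 2.52 CPM in EμMyc/Casp2-/- tumors, and at 9.47, 9.80, 9.52 and 7.84 CPM in Th-MYCN and 6.41, 10.9, 6.36 and 8.29 CPM in Th-MYCN/Casp2-/- tumors (log2FC -1.52, SE 0.39, and -1.41, SE 0.43, LRT FDR 0.00026 and 0.0029). Every neuroblastoma was thus above every lymphoma for the signaling chain of the IL-12 receptor. Its exons overlap those of Serbp1 on the other strand, and reads of the pair cannot be told apart there.

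Il27ra, the IL-27 receptor that signals with gp130, was at 4.37, 13.9, 4.80 and 15.4 CPM in EμMyc and 23.8, 13.4 and 13.5 CPM in EμMyc/Casp2-/- tumors and at most 1.61 CPM in neuroblastomas, in MYCN391 (log2FC 4.04, SE 0.68, and 5.35, SE 0.76). Like Il12rb1, Il27ra passed the filter through the lymphomas alone. Il6ra was also higher in lymphomas (log2FC 3.34, SE 0.67, and 3.84, SE 0.73), with 31.3 CPM in EuMyc614, 32.9 CPM in EuMycC2ko239 and 4.41 to 15.7 CPM in the other lymphomas. Il11ra1, the IL-11 receptor, was called only in the Casp2-/- tumors (log2FC 1.32, SE 0.48, LRT FDR 0.012), where EuMycC2ko215 had 29.7 CPM and the other lymphomas lay within 5.51 to 8.39 CPM, and without EuMycC2ko215 the log2FC was 0.39 (LRT FDR 0.382). The shared chain Il6st behaved otherwise. It was at 31.0, 42.7, 35.4 and 29.8 CPM in EμMyc and 57.0, 55.2 and 28.7 CPM in EμMyc/Casp2-/- tumors, and at 49.8, 54.0, 58.7 and 56.2 CPM in Th-MYCN and 70.1, 138, 50.0 and 63.2 CPM in Th-MYCN/Casp2-/- tumors. The wild-type groups did not overlap but the log2FC of -0.65 (SE 0.30, LRT FDR 0.051) was not called, nor was -0.78 (SE 0.33, LRT FDR 0.034) in the Casp2-/- tumors, where the fold change was under 2.

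In the IL-10 family 4 of 7 receptor chains and none of the 7 ligands were tested. Il10ra, the chain specific to IL-10, was at 77.4, 14.5, 35.1 and 52.6 CPM in EμMyc and 88.9, 74.7 and 47.0 CPM in EμMyc/Casp2-/- tumors, with 8.49, 8.5, 4.62 and 20.6 CPM in Th-MYCN and 5.62, 5.46, 7.14 and 9.26 CPM in Th-MYCN/Casp2-/- tumors (log2FC 2.09, SE 0.48, and 3.35, SE 0.52). MYCN391 was above EuMyc743b. Il10rb, shared by the receptors for IL-10, IL-22 and interferon lambda, ran from 22.9 to 53.3 CPM in lymphomas and 3.02 to 9.88 CPM in neuroblastomas (log2FC 2.10, SE 0.32, and 2.48, SE 0.35). Il20rb was called in neither comparison (log2FC -0.28, SE 0.50, and 0.34, SE 0.54). Il28ra was called higher in the Casp2-/- lymphomas (log2FC 3.19, LRT FDR 0.00016). In wild-type tumors its log2FC of -1.31 (LRT FDR 0.096) was not called, except without EuMyc743b (-1.78, LRT FDR 0.0421).

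Of the 3 genes called lower in lymphomas in both genotypes, Il17d and Il17rd belong to the IL-17 family, which also holds Il17ra. Il17d, the least understood ligand of the family, was at 9.22, 13.7, 10.4 and 7.84 CPM in Th-MYCN and 9.94, 12.2, 11.5 and 14.9 CPM in Th-MYCN/Casp2-/- tumors, and at 0.175, 0.428, 0.551 and 0.956 CPM in EμMyc and 0.977, 0.0835 and 0 CPM in EμMyc/Casp2-/- tumors (log2FC -4.29, SE 0.51, and -5.55, SE 0.72, LRT FDR 1.8e-15 and 3.5e-15, QLF FDR 5.7e-05 and 6.5e-05), and the second log2FC was -7.73 without EuMycC2ko215, -4.91 without EuMycC2ko239 and -4.88 without EuMycC2ko245. Il17rd (Sef), which also restrains FGF signaling, was at 6.78, 7.55, 4.67 and 9.70 CPM in Th-MYCN and 7.71, 20.8, 6.27 and 5.85 CPM in Th-MYCN/Casp2-/- tumors, and between 0.319 and 1.67 CPM in the lymphomas (log2FC -3.22, SE 0.61, and -3.53, SE 0.67, LRT FDR 1.3e-06 and 3.9e-06). Neither gene overlapped between tumor types, and both, like Il17f, passed the filter through the neuroblastomas alone. Il17f was read far more than its neighbor Il17a, which lies 42.6 kb away on chromosome 1. It was at 6.17, 0.726, 1.15 and 0.432 CPM in Th-MYCN and 4.32, 2.38, 1.06 and 1.14 CPM in Th-MYCN/Casp2-/- tumors, at 0.262, 0, 0.158 and 1.70 CPM in EμMyc tumors, and had no second strand read in the 3 EμMyc/Casp2-/- tumors, where 3 reads lay on the other strand. Set against 3 reads over that group, the 122 reads of the Th-MYCN/Casp2-/- tumors were at least 21.1-fold higher (LRT FDR 0.00011, QLF FDR 0.0070), and in the wild-type comparison Il17f was not called (log2FC -2.01, LRT FDR 0.088). Of the 21 reads of the EμMyc tumors 16 were in EuMyc835, and without it Il17f was called lower (log2FC -3.83, LRT FDR 0.00194), as it was with the unstranded column (-2.44, LRT FDR 0.0361). Il17rc, the chain that pairs with Il17ra for IL-17F, was at 0.472 to 6.06 CPM in lymphomas and 1.45 to 2.69 CPM in neuroblastomas and was called in neither comparison, though its second log2FC of 0.37 (SE 0.67) turned to -0.97 without EuMycC2ko215. Il17ra was thus highest in lymphomas and Il17f in neuroblastomas. Il17rb, a chain for IL-17B and IL-25, was called higher in the Casp2-/- lymphomas (log2FC 3.70, SE 1.06, LRT FDR 0.0019), but its values of 24.4, 0.501 and 1.41 CPM overlapped the 0.569 to 0.792 CPM of the Th-MYCN/Casp2-/- tumors, and without EuMycC2ko215 the log2FC was 0.57 (LRT FDR 0.618). Il34, a ligand of the CSF-1 receptor, was at 3.91, 2.54, 5.37 and 2.66 CPM in Th-MYCN and 5.11, 4.30, 8.68 and 6.82 CPM in Th-MYCN/Casp2-/- tumors, and in the lymphomas at most 2.40 CPM except for 7.42 CPM in EuMycC2ko215. It was not called (log2FC -1.39, SE 0.70, and -1.09, SE 0.75). In wild-type tumors it was called lower with the unstranded column (-1.54, LRT FDR 0.0373), with the compared groups alone (-1.40, LRT FDR 0.0356) and without EuMyc743b (-1.81, LRT FDR 0.0388), and in Casp2-/- tumors without EuMycC2ko215 (-2.86, LRT FDR 0.00040).

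**Figure D4:**
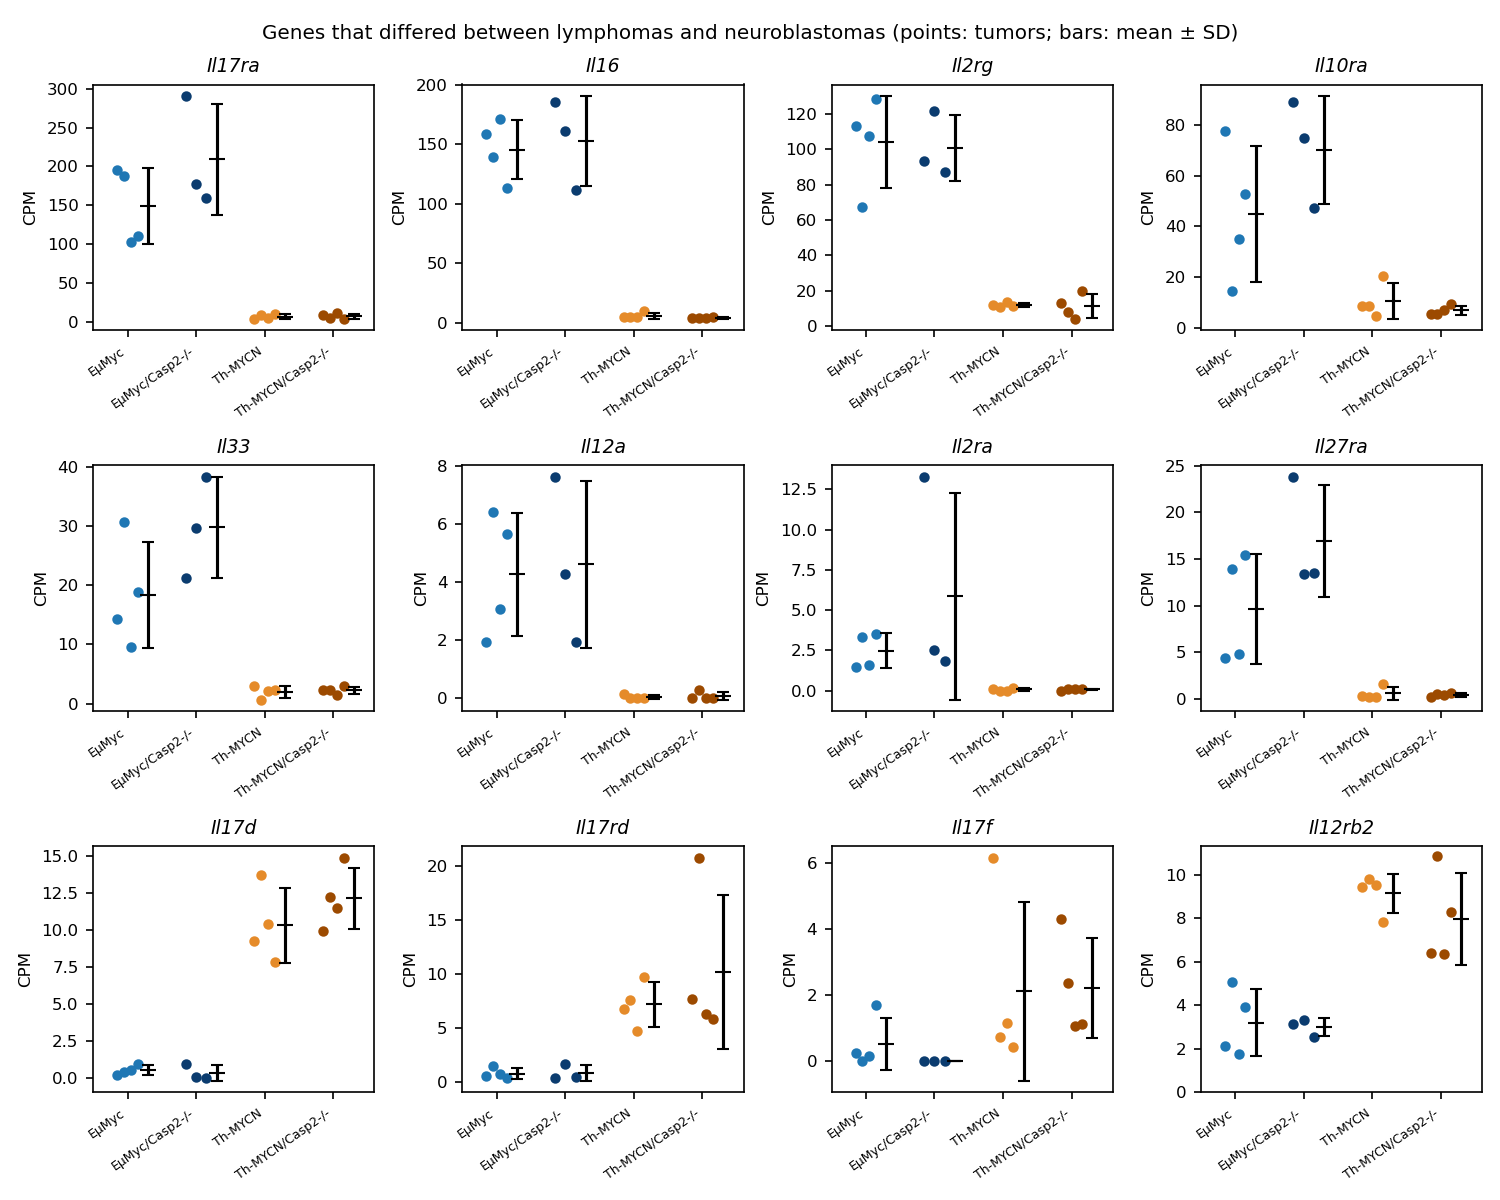
CPM (y axis, linear) of 12 genes in the 4 groups (x axis), with 1 point per tumor and the mean ± SD beside it. Il17ra, Il16, Il2rg, Il33, Il12a, Il2ra and Il27ra lie higher in every lymphoma than in any neuroblastoma, Il10ra overlaps between EuMyc743b (14.5 CPM) and MYCN391 (20.6 CPM), and Il17d, Il17rd and Il12rb2 lie higher in every neuroblastoma, as Il17f does except for EuMyc835 (1.70 CPM).

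In the neuroblastomas none of the 41 genes was called between the Casp2 genotypes. LRT called 0.813% of all genes and 0 of the 41. QLF called 0.00672% of all genes higher and 0.0269% lower in Casp2-/- tumors and 0 of the 41, and DESeq2 also called 0 of them. At an unadjusted p under 0.05, LRT had 4 of the 41 (7.78% of all genes) and QLF 3 (6.77%). The median log2FC was -0.07, beside -0.0024 over all genes tested. No gene was higher without overlap, where 2.94% of all genes were, and 4 were lower without overlap (9.76%, where 3.68% of all were), namely Il28ra, Il18, Il10rb and Il1a. Il18 was at 3.12, 2.11, 3.0 and 3.64 CPM in Th-MYCN and 1.08, 1.48, 1.74 and 1.14 CPM in Th-MYCN/Casp2-/- tumors (log2FC -1.13, SE 0.52, LRT FDR 0.53). Il1b (log2FC -2.34, SE 0.92, LRT FDR 0.35) had its high values in MYCN235 and MYCN391. Il17rb had its high values, 5.52 and 3.83 CPM, in the same pair (log2FC -2.04, SE 0.99, LRT FDR 0.61). Il6st went the other way (log2FC 0.56, SE 0.30, LRT FDR 0.72), with MYCNC2ko144 highest. MYCN391 was the highest neuroblastoma for 18 of the 41 genes (43.9%), against 11.9% of all genes tested, and its macrophage marker sum of 968 CPM was the highest of the 8, the rest lying between 391 and 913 CPM. Its T cell, NK cell and granulocyte sums of 122, 0.926 and 7.23 CPM were also the highest, with at most 113, 0.579 and 4.43 CPM in the rest. Its B cell, pre-B cell and plasma cell sums were not the highest. Endothelial markers, led by Pecam1, also moved with genotype, summing to 80.9, 56.5, 53.3 and 52.1 CPM in Th-MYCN and 28.3, 26.7, 21.2 and 39.0 CPM in Th-MYCN/Casp2-/- tumors, with 2 of 6 called lower, none of the 6 at 0 in all neuroblastomas. The part of these markers in the values above was not tested.

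In the lymphomas, too, LRT called none of the 41 genes between genotypes, where it called 1.44% of all genes. QLF called 0.0941% of all genes higher and 0.047% lower and 0 of the 41, and DESeq2 also called 0 of them. At an unadjusted p under 0.05, LRT had 9 (9.89% of all genes) and QLF 6 (8.53%). The median log2FC was 0.49, beside -0.03 over all genes tested. Il28ra and Il15 were higher without overlap (4.88%, where 1.75% of all genes were) and none was lower without overlap (1.96% of all). Il15, which sustains NK and memory T cells, was at 1.05, 1.45, 0.158 and 1.38 CPM in EμMyc and 5.27, 1.67 and 2.62 CPM in EμMyc/Casp2-/- tumors (log2FC 1.63, SE 0.61, LRT FDR 0.19, and 1.10 without EuMycC2ko215). For Il3ra the log2FC was 1.60 (SE 0.55, LRT FDR 0.13) and for Il21r 1.70 (SE 0.72, LRT FDR 0.31), and without EuMycC2ko215 they were 0.42 (LRT FDR 1) and 0.56 (LRT FDR 1). Il17f had 21 reads in EμMyc tumors, 16 of them in EuMyc835, and 0 second strand reads in EμMyc/Casp2-/- tumors (LRT FDR 0.10, QLF FDR 0.51). EuMycC2ko215 was the highest lymphoma for 20 of the 41 genes (48.8%), against 25.8% of all genes tested. T cell markers, of which 5 of 13 tested were called higher in EμMyc/Casp2-/- tumors, had their highest sum in the same tumor, as did pre-B cell, NK cell and macrophage markers among the lymphomas, and their part in these values was not tested.

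Il28ra was the single one of the 41 genes for which LRT called a difference between tumor types in the effect of genotype. It encodes the chain specific to interferon lambda, which works with Il10rb, and lies at chr4:135686287-135708181 (GRCm38, plus strand). It was at 1.04, 1.89, 1.21 and 3.40 CPM in Th-MYCN and 0.360, 0.707, 0.386 and 0 CPM in Th-MYCN/Casp2-/- tumors, a log2FC of -2.32 (SE 0.74, LRT FDR 0.115, QLF FDR 0.471). In lymphomas it was at 0.262, 1.37, 0.236 and 1.17 CPM in EμMyc and 5.27, 3.17 and 2.02 CPM in EμMyc/Casp2-/- tumors, a log2FC of 2.18 (SE 0.76, LRT FDR 0.136, QLF FDR 0.421). Thus the groups did not overlap in either tumor type and lay in opposite order, while neither change was called, except that in neuroblastomas with the compared groups alone (log2FC -2.32, LRT FDR 0.028). The interaction term was called by LRT (log2FC 4.50, SE 1.06, LRT FDR 0.00877) and by DESeq2 (4.59, adjusted p = 0.0201), but not by QLF (FDR 0.318) or with reads of either strand (4.01, LRT FDR 0.0638). Leaving out each of the 15 tumors in turn gave 4.05 to 5.04 with LRT FDR 0.00307 to 0.0447. LRT called the interaction for 0.914% of all genes and for 1 of the 41, and QLF for 0.0336% with a positive and 0.0202% with a negative sign and for 0 of the 41. The counts behind it were small, 119 reads over the Th-MYCN, 20 over the Th-MYCN/Casp2-/-, 33 over the EμMyc and 85 over the EμMyc/Casp2-/- tumors. The interferon lambda ligand genes Il28a and Il28b had no read on either strand in any tumor. The next terms by p were those of Il17rb (log2FC 4.16, SE 1.43, LRT FDR 0.18, and 0.98 without EuMycC2ko215), Il17f (LRT FDR 0.23), Il21r (2.50, SE 0.99, LRT FDR 0.31, and 1.36 with FDR 0.853 without EuMycC2ko215) and Il4ra (1.34, SE 0.58, LRT FDR 0.41). None of these 4 was called with all tumors, whereas Il17rb was called without EuMycC2ko239 (4.73, LRT FDR 0.0435), Il17f without MYCN175 (LRT FDR 0.046) and Il4ra without EuMycC2ko245 (1.76, LRT FDR 0.00496).

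**Figure D5:**
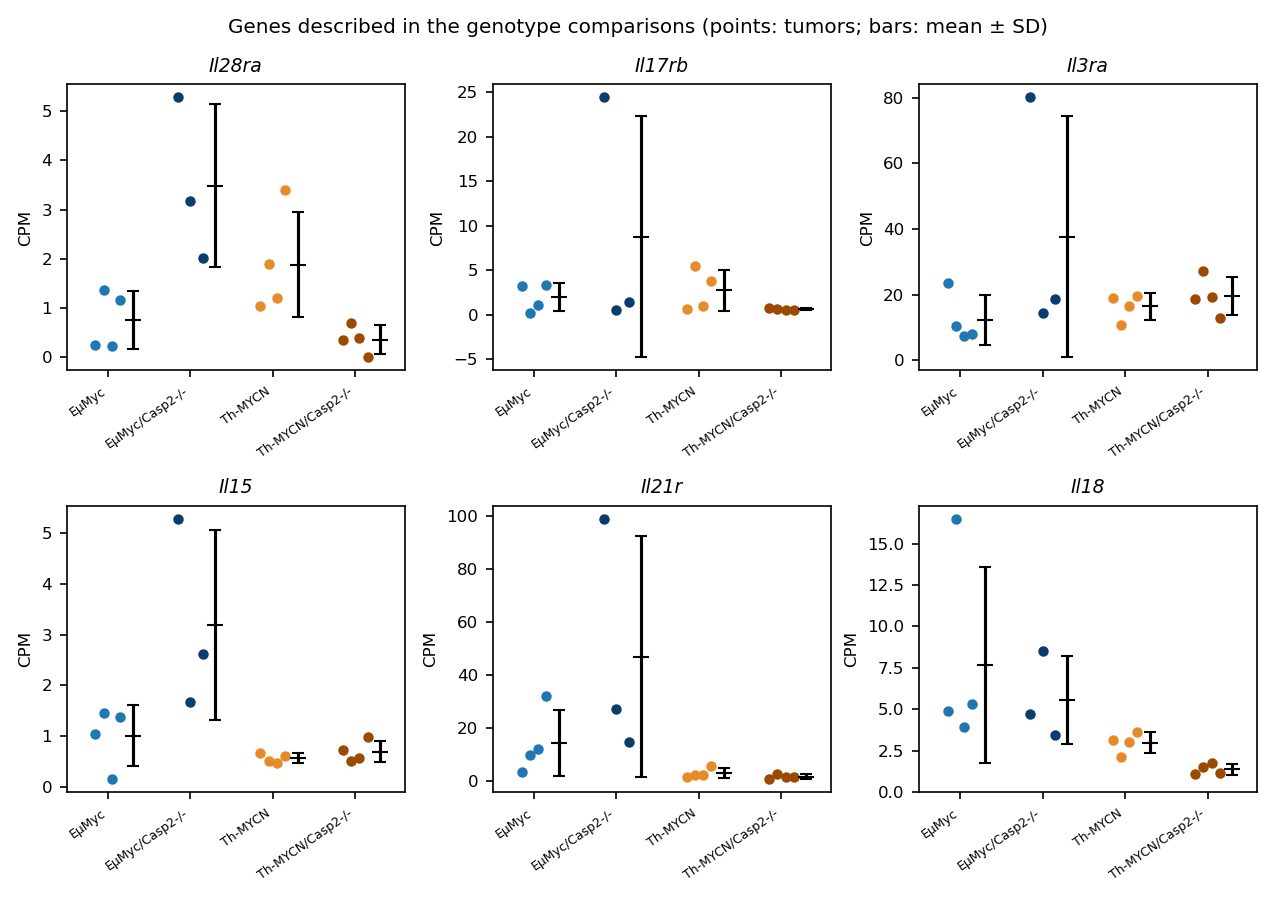
CPM (y axis, linear) of 6 genes named in the genotype comparisons in the 4 groups (x axis), with 1 point per tumor and the mean ± SD beside it. Il28ra lies lower in every Th-MYCN/Casp2-/- than in any Th-MYCN tumor and higher in every EμMyc/Casp2-/- than in any EμMyc tumor, and the high points of Il17rb, Il3ra and Il21r at 24.4, 80.1 and 99.0 CPM are all EuMycC2ko215.

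The genes that carry these signals into the cell were also compared between tumor types, from 3 lists. Of 26 genes for Janus kinases, STAT factors and their regulators, all tested, 12 were called higher and 3 lower in lymphomas in each genotype, where 18.9% and 28.5% of all genes were in wild-type and 20.5% and 27.6% in Casp2-/- tumors. Jak3, the kinase bound to the common gamma chain, was at 42.0 to 62.2 CPM in lymphomas and 1.08 to 7.04 CPM in neuroblastomas (log2FC 3.11 and 4.09). Stat5a, its main target, had 4.85 and 4.90, and Stat6, the factor of IL-4, had 3.89 and 3.91. Jak1, used by nearly all these receptors, differed by less than 2-fold (log2FC 0.76 and 0.83), and Socs5, Socs7 and Cish were the genes called lower. Of 16 genes of IL-1 and IL-17 receptor signaling, 6 were called higher in wild-type and 7 in Casp2-/- lymphomas and none lower, beside the same shares of all genes. Sigirr, which restrains IL-1 receptors, was at 28.6 to 64.7 CPM in lymphomas and 0.288 to 1.06 CPM in neuroblastomas (log2FC 6.09 and 6.13). Myd88, the adaptor of IL-1 receptors, had 2.27 and 2.68, and Traf3ip2 (Act1), the adaptor of IL-17 receptors, 2.12 and 1.77.

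Chains and ligands of the same families that carry other names were called in both directions. Of 22 found in the count files, 18 were tested, with 7 called higher and 4 lower in wild-type lymphomas and 8 and 5 in Casp2-/- lymphomas. All genes tested had 18.9% higher and 28.5% lower in the first comparison and 20.5% and 27.6% in the second. Csf2rb, the common beta chain that pairs with Il3ra and Il5ra, was higher in lymphomas (log2FC 2.88 and 3.66), as was Osm, a gp130 ligand (5.93 and 4.57). Cntfr and Lifr, which pair with Il6st for other gp130 cytokines, were lower. Cntfr, the receptor for ciliary neurotrophic factor, was at 35.3 to 314 CPM in neuroblastomas and 0.236 to 3.32 CPM in lymphomas (log2FC -7.81 and -5.91), and Lifr, the receptor for LIF, was at 47.1 to 148 CPM and 4.17 to 53.9 CPM (log2FC -2.46 and -1.80). Between genotypes LRT called none of the genes of these 3 lists in neuroblastomas, where it called 0.813% of all genes. In lymphomas, where it called 1.44% of all genes, it called 1 gene of the third list lower and 1 of the Janus kinase and STAT list higher in EμMyc/Casp2-/- tumors, the latter being Stat4, a T cell and NK cell factor (log2FC 2.73, LRT FDR 0.048), with 22.5 CPM in EuMycC2ko215. In fits without 1 tumor, chosen after the values were seen, the log2FC of Stat4 was 1.88 (LRT FDR 0.632) without EuMycC2ko215, and the call remained only without EuMyc743b or EuMycC2ko245.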

How the data were processed

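RNA from 15 tumors, extracted with Trizol and selected for poly(A), was sequenced as single-end reads of 50 bases. The deposited files hold read counts per gene in 3 columns (unstranded, first strand, second strand), which the authors made with STAR on mm10 (GRCm38), with FastQC and edgeR also named in the submitters' processing notes. The annotation release and tool versions are not given in the sources used here. The second strand column was used. It held 48.8 to 49.3% of the reads assigned on either strand, so the libraries behaved as unstranded, and reads of genes that overlap on opposite strands cannot be told apart. Exons of 20 of the 84 overlap those of an opposite strand gene in GENCODE M21, which for 10 of them is in the count files (among those described, Il16, Il18bp, Il12rb2, Il1a, Il17rb, Il11ra1 and Il27ra).

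Genes above 1 CPM in 3 or more tumors were tested. Counts were scaled by TMM and fitted with 4 group means over all 15 tumors in edgeR 4.0.16 (R 4.3.3, limma 3.58.1), and tested with the likelihood ratio test (LRT), p-values being adjusted by Benjamini-Hochberg over all genes tested (FDR). A gene was called at an FDR under 0.05 and a fold change over 2. The quasi-likelihood test (QLF), DESeq2 1.42.0, other scalings and filters, the unstranded column, fits of the compared groups alone and fits without each tumor were alternatives. The fit was also run on simulated data with 200 changed genes, the outcome of which is not given here. Standard errors came from the edgeR fit, log2FC is the log2 fold change, and a count of 3 reads was the floor. Intervals and floors cover counting error only. Each library is from a separate mouse, and no pair of libraries was identical (chi-square per degree of freedom 16.2 to 76.0 between tumors of a group). Levels per kilobase used merged exons of GENCODE M21, which placed 83 of the 84 genes. Promoters came from RefSeq (GRCm38.p6), the first window listed per symbol. Tables were handled with Python 3.11.15 and pandas 2.3.3, and plots drawn with matplotlib 3.10.9.

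Genes were named by rule: those called between genotypes or with the smallest genotype p up to 5, up to 10 of largest change between tumor types in each direction among those called in both genotypes (10 higher and 3 lower), the 8 highest per kilobase in each tumor type, Il2ra, and receptor chains of ligands with a median above 1 CPM. Il1rn, Il6ra, Il11ra1, Il13ra1, Il20rb and the untested genes are described as examples of their families. Fits without each tumor for Il1rn, Il6ra, Il11ra1, Il13ra1, Il20rb and Stat4 were added after seeing the data. The genes, lists and tests were chosen with earlier results of these data known. 1 gene that matches the naming pattern and 1 of the related chains and ligands are not reported here, and 1 more EμMyc/Casp2-/- tumor of the study was not analysed here.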

Additional observations from a re-analysis of the deposited data

Results flagged for a closer look

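Within groups of 4 tumors, a tumor was marked when its gap to the nearest other exceeded 0.829 of the range of the group. This happened in 18 of 108 sets (36 named genes in 3 groups, 16.7%), where chance marks about 1 in 20 sets of normally distributed values. That rate does not hold for sparse counts, and in 6 of the 18 sets the other 3 tumors were at 0, which gives a ratio of 1 by construction. In EμMyc tumors EuMyc743b, which had the highest granulocyte and macrophage sums of the group, stood high for Il1b (11.04 CPM, the next at 1.837), Il18 (16.51 CPM, next 5.309), Il1r2 (7.357 CPM, next 1.38) and Il1a (6.245 CPM, next 3.398). Il17f was high in EuMyc835 (1.699 CPM, next 0.2624), and Il4ra was low in EuMyc829 (20.16 CPM, next 40.77).

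In Th-MYCN tumors MYCN391 stood high for Il16 (9.881 CPM, next 5.011), Il27ra (1.606 CPM, next 0.3054), Il2rb (0.5558 CPM, the others at 0) and Il18rap (0.1235 CPM, the others at 0). MYCN175 stood high for Il17f (6.169 CPM, next 1.154) and Il12a (0.1222 CPM, the others at 0), and MYCN332 for Il5ra (0.05771 CPM, the others at 0). In Th-MYCN/Casp2-/- tumors MYCNC2ko144 stood high for Il17rd (20.75 CPM, next 7.706), Il18r1 (0.4498 CPM, next 0.09642), and Il12a and Il5ra (0.257 CPM each, the others at 0), and MYCNC2ko118 for Il17rc (2.305 CPM, next 1.868). Of these, the values for Il12a, Il5ra, Il2rb, Il18r1 and Il18rap lie on few reads.

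The effect of Casp2 genotype on Il28ra differed between lymphomas and neuroblastomas by a log2FC of 4.502 in the LRT interaction term, with QLF FDR 0.318.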

How the results depend on the processing

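The count of genes called between wild-type tumor types was 27, and 24 to 35 under 8 other settings (26 with DESeq2 or RLE size factors, 35 with no CPM filter, 24 with the compared groups alone) and 25 to 28 without each tumor in turn. With the compared groups alone, where the filter ran over fewer tumors, Il1r2, Il18r1, Il18rap and Il12rb1 did not pass it in wild-type tumors, nor Il18rap, Il17rb, Il7 and Il5ra in Casp2-/- tumors, and Il34 was called lower in wild-type tumors. The unstranded column dropped Il18rap at the filter in both, and gained Il17f and Il34 in wild-type and Il1a in Casp2-/- tumors. Without EuMyc743b, Il1r2, Il18 and Il13ra1 were lost, Il18rap did not pass the filter and Il28ra, Il17rc and Il34 were called lower. Il18 and Il13ra1 were also lost without MYCN235 and Il13ra1 without MYCN332, Il17f was called lower without EuMyc835, and Il1rn and Il15 were called higher without MYCN391 and EuMyc829. In Casp2-/- tumors the count was 34, with 30 to 38 under other settings and 33 to 35 without each tumor. Il17rb and Il11ra1 were lost without EuMycC2ko215, Il1b without EuMycC2ko239 and Il1rap without EuMycC2ko245, and Il18rap did not pass the filter without either of the last 2. Il34 was called lower without EuMycC2ko215, and Il3ra higher without EuMycC2ko239 and Il1a higher without EuMycC2ko245 or MYCNC2ko180. Some calls held while their fold change moved by over 1.5 times, and the log2FC without the tumor is given in brackets. In wild-type tumors they included Il21r (1.48) and Il12rb1 (4.10) without EuMyc835 and Il6ra (2.61) without EuMyc614. Without MYCN391 they included Il27ra (5.31), Il2ra (5.57), Il12rb1 (5.85) and Il18rap (5.77). In Casp2-/- tumors they included Il6ra (2.88), Il17rb (4.32) and Il17rd (-4.57) without EuMycC2ko239. Others there were Il18rap without EuMycC2ko215 (4.23) or MYCNC2ko180 (4.26), and Il17rd (-2.91) and Il18r1 (5.08) without MYCNC2ko144. Between neuroblastoma genotypes the count of 0 became 1 (Il28ra, lower) when only the groups compared were fitted, and was 0 without each tumor. Between lymphoma genotypes it was 0 to 2 without each tumor (Il3ra without EuMyc614 or EuMycC2ko239, Il3ra and Il4ra without EuMycC2ko245). The interaction count of 1 became 0 with QLF and 0 with the unstranded column, and was 1 to 2 without each tumor, gaining Il17rb without EuMycC2ko239, Il4ra without EuMycC2ko245 and Il17f without MYCN175. The number of genes passing the filter was 41, 43 with filterByExpr and 70 when 1 read in any tumor sufficed.

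Of log2FC values of named genes, 1008 of 1031 alternative fits between tumor types kept direction and call. For genotype, the interaction terms included, 240 of 249 did. Fits in which a gene did not pass the filter, such as those that dropped Il18rap, were not counted. A value that was not called and stayed so counted as kept. Those that turned did so without a tumor: Il1b ranged from -0.91 to 1.47 and Il17rb from -0.85 to 0.11 in wild-type tumors, and Il3ra from -0.18 to 1.40 and Il17rc from -0.97 to 0.83 in Casp2-/- tumors. Where no value is given for the cause of a change, the cause was not tested. No paired analysis was run, because the labels carry only mouse IDs and the replicate numbers follow only the order of the samples. Depth limits the low genes, since 3 reads were worth up to 0.586 CPM.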
